A study of Mus musculus with 8 samples.

Results

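The Jun N-terminal kinase (JNK) cascade is the chain of protein kinases that ends in phosphorylation of the transcription factor c-JUN. Its transcripts were examined in mouse B-lymphoid cells, in 4 samples labelled c-jun knockout and 4 labelled wild type. The set comprised 10 genes chosen by their place in the cascade, and for each the brightest probe set carrying that gene symbol alone was taken. Of the 10 genes, 9 were measured, among 19937 genes in all; Map2k7, which encodes the JNK kinase MKK7, had no such probe set in the tables used and was not analysed here. All samples share the strain label SW129/C57BL/6J, and each was hybridised to 1 Affymetrix MoGene 1.0 ST array. The series title concerns lymphoid leukemia induced by BCR-ABL, but whether these cells carried BCR-ABL, and how or when Jun was deleted, is not in the labels. Nor do they tell if replicates are separate cultures or animals. The p-values therefore reflect the spread between these 8 samples, some of which may be technical. Knockout replicates 1 and 2 (KO1, KO2) and wild-type replicates 1 and 2 (WT1, WT2) have RO titles. Knockout replicates 3 and 4 (KO3, KO4) have D titles and wild-type replicates 3 and 4 (WT3, WT4) have F titles. What these title series, called RO and D/F here, stand for is not given.

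In the cascade, kinases of the MAP3K tier phosphorylate the MAP2K kinases MKK4 and MKK7, which in turn phosphorylate JNK. JNK, encoded by Mapk8, Mapk9 and Mapk10, phosphorylates the N-terminal region of c-JUN and so raises the activity of AP-1, the dimeric factor that c-JUN forms with its relatives. Scaffold proteins such as JIP1, encoded by Mapk8ip1, hold kinases of successive tiers together. The cascade answers stress, cytokines and, in B cells, antigen receptor and CD40 signals. Its activity is set mainly by phosphorylation, which transcript arrays do not measure.

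The arrays differed among themselves in a way that touches the results. The median gene lay at 7.29, 7.19, 7.47 and 7.47 on the log2 signal scale on KO1 to KO4, against 7.72, 7.43, 7.72 and 7.24 on WT1 to WT4. WT1 and WT3 therefore stood above the other 6 arrays in the middle of the scale, although the deposited values share a common trimmed mean. Over the 28 pairs of arrays, Pearson's r across genes ran from 0.957 to 0.983, and 0 pairs were identical. Jun itself was at 6.99, 6.46, 7.02 and 6.97 in KO1 to KO4, against 8.82, 8.84, 10.55 and 8.77 in WT1 to WT4. The knockout labels were therefore matched by a Jun signal that did not overlap between genotypes. The difference was -2.38 (SE 0.32), with p = 1.06e-05 and an adjusted p of 0.106 in limma, and p = 0.0286 in a 2-sided exact permutation test, the smallest value that 70 assignments allow. All 9 measured B-cell markers exceeded the 95th percentile of 1027 olfactory receptor genes on every array. Those receptor genes, a family used in sensory neurons, served as a yardstick for signal without expression. Jun, the deleted gene, also exceeded that percentile in KO1, KO3 and KO4, so passing it does not by itself show expression. Of the markers of other cells, 2 of 8 myeloid, 1 of 7 T and NK cell, 1 of 4 erythroid and megakaryocyte and 3 of 6 stromal genes also exceeded it on every array.

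Of the 3 JNK genes, Mapk8 and Mapk9 gave signals well up the scale in every sample, while Mapk10 did not rise above the receptor yardstick in any. Mapk8, which encodes the widely expressed kinase JNK1, was at 9.64, 9.59, 8.95 and 9.27 in KO1 to KO4, against 9.02, 9.40, 9.28 and 8.91 in WT1 to WT4 (log2 signal, probe set 10418879). Both RO knockouts lay above every other sample, but KO3 and KO4 lay within the wild-type range, so the genotypes overlapped. Mapk9, which encodes JNK2, was at 9.16, 9.37, 9.31 and 9.21 in KO1 to KO4, against 8.996, 10.13, 8.74 and 9.45 in WT1 to WT4 (probe set 10375634). The 4 knockout samples were close together and lay inside the spread of the wild-type samples, whose SD was 0.61 against 0.096 in knockout samples (n = 4 each). Mapk8 lay between percentiles 68.5 and 78.3 of all genes of its array, and Mapk9 between 65.7 and 84.2. Both were above the array's median gene, and above the 95th percentile of olfactory receptor genes, on 8 of 8 arrays. Probe sets differ in affinity, so these positions do not rank the amounts of the transcripts.

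Mapk10 encodes JNK3, which is known mainly from brain, heart and testis. Its probe set 10531869 gave 6.41, 6.00, 6.61 and 6.68 in KO1 to KO4, against 6.90, 6.48, 6.97 and 6.02 in WT1 to WT4. These signals were between percentiles 17.9 and 29.3 of their arrays and below the 95th percentile of olfactory receptor genes on all 8, with 77.9% to 90.9% of those genes dimmer. The other single-symbol probe set of Mapk10 was dimmer still, between 5.29 and 5.80, and exceeded the median olfactory receptor gene on 0 of 8 arrays. Detection calls were not used, so these signals do not tell a low level of Mapk10 transcript from none. Of 7 neural markers measured, Tubb3 alone exceeded the receptor yardstick on every array and 3 did so on none. Their summed linear signal was 727 to 1347 in knockout samples, against 1163 to 1877 in wild-type samples. Tubb3 made up much of that sum, with log2 signals of 7.82 to 9.44 in knockout and 9.16 to 10.05 in wild-type samples. Its part in the Mapk10 values was not tested. In bulk samples such as these, fewer cells of a type and less RNA per cell cannot be told apart.

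**Figure D1:**
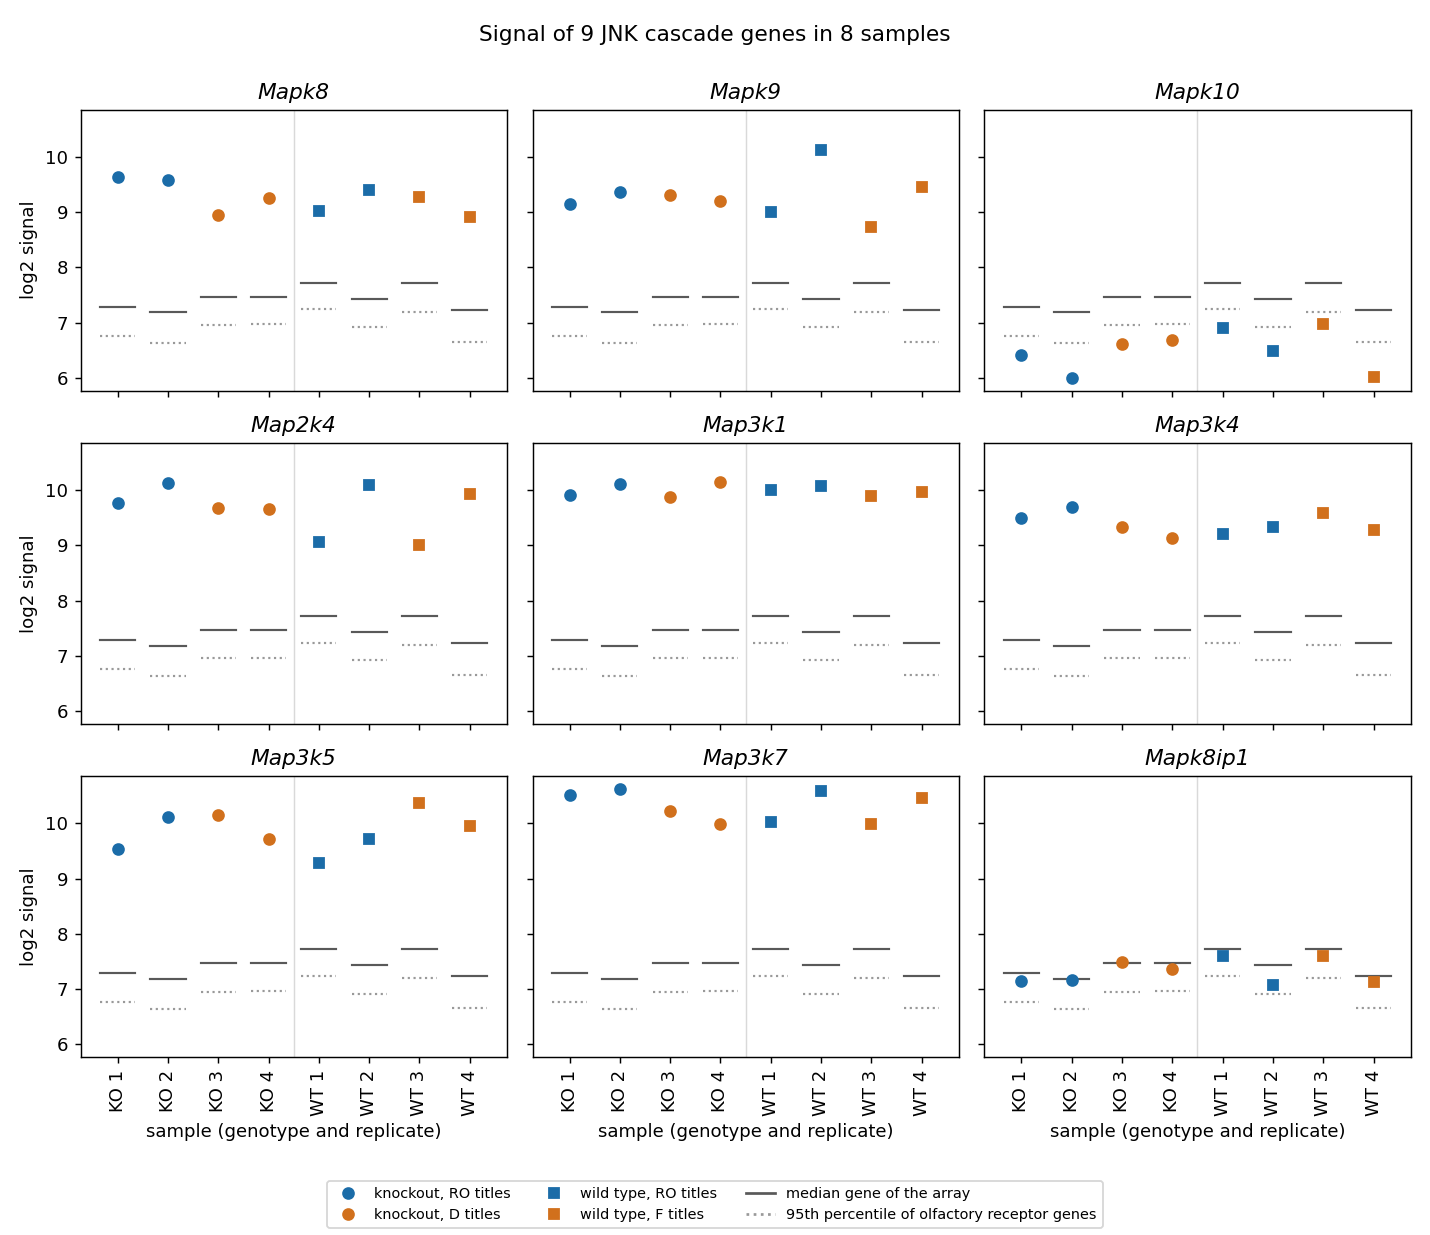
Log2 signal (vertical axis) of the 9 measured cascade genes in each of 8 samples (horizontal axis), with circles for knockout and squares for wild-type samples, blue for RO titles and orange for D/F titles. Solid ticks give the median gene of each array and dotted ticks the 95th percentile of olfactory receptor genes: Mapk10 lies under the dotted tick on all 8 arrays, Mapk8ip1 between or near the ticks, and the other 7 genes above both.

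Because the factor at the end of the cascade is the one deleted, the sequence just before the transcription start of the JNK genes and of Jun is shown. It is in lower case, with matches to the letters TGANTCA or TGACNTCA in capitals, N being any base. The matches shown are all to TGACNTCA. The stretches are from RefSeq on GRCm38.p6, 150 bases ending at the base before the annotated start, 5′ to 3′ on the gene's strand. The Mapk8 stretch is at chr14:33447159-33447308 (minus strand), that of Mapk9 at chr11:49846601-49846750 (plus strand), that of Mapk10 at chr5:103211335-103211484 (minus strand) and that of Jun at chr4:95052223-95052372 (minus strand). RefSeq gave 2 starts each for Mapk8 and Mapk10, and the stretch shown for each is the first in the table.
Mapk8: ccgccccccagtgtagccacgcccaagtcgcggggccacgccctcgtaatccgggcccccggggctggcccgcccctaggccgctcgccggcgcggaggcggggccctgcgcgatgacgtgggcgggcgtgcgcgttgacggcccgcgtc
Mapk9: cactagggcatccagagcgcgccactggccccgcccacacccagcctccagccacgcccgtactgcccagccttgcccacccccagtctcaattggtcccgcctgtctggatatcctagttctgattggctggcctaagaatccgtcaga
Mapk10: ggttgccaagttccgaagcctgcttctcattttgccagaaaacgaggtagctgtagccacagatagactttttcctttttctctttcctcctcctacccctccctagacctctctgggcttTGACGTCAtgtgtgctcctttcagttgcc
Jun: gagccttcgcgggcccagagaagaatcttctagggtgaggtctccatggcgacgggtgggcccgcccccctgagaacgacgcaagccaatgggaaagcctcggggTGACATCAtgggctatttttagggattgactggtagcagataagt
The share of G and C in these stretches was 80.7% for Mapk8, 63.3% for Mapk9, 50% for Mapk10 and 58.0% for Jun, and it was 35.3% and 29.3% before the other starts of Mapk8 and Mapk10. The letters TGANTCA and TGACNTCA were searched on both strands in the 250 bases before each start. RefSeq gave 11 such windows for 8 of the measured members and none for Mapk8ip1. TGANTCA was in 0 of the 11 windows, against 6.75% of 32851 windows of the same length, and TGACNTCA was in 1 of 11, against 7.49%. That window is the Mapk10 one above, with the match starting 29 bases before the start; in Jun a match starts 45 bases before it. The array does not say which annotated start a probe set reads, and a match is a stretch of letters, not a measured binding site.

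The MAP2K gene that was measured was Map2k4. It encodes MKK4, which phosphorylates JNK and can also phosphorylate p38. It was at 9.76, 10.13, 9.67 and 9.67 in KO1 to KO4, against 9.07, 10.09, 9.01 and 9.94 in WT1 to WT4 (probe set 10387014). WT1 and WT3 were the lowest of the 8 samples, while WT2 and WT4 lay among the knockout samples. The SD over all 8 samples was 0.42, against 0.41 for Mapk9, whose range of 1.39 exceeded that of Map2k4, 1.11. Map2k4 was above the median gene and the receptor yardstick on 8 of 8 arrays, between percentiles 69.5 and 83.9.

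All 4 MAP3K members gave signals above the array median and the receptor yardstick on 8 of 8 arrays. Map3k1 encodes MEKK1, which activates MKK4. It was at 9.91, 10.11, 9.89 and 10.16 in KO1 to KO4, against 10.01, 10.07, 9.90 and 9.97 in WT1 to WT4, with an SD of 0.10 over the 8 samples, the smallest of the 9 on the deposited scale. Relative to the median gene of each array it ran from 2.18 to 2.92, a wider span than that of Mapk8ip1. Map3k4 encodes MEKK4, a kinase that GADD45 proteins activate. It was at 9.49, 9.69, 9.33 and 9.14 in KO1 to KO4, against 9.21, 9.33, 9.59 and 9.28 in WT1 to WT4, and its highest and lowest samples were both knockouts, KO2 and KO4.

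Map3k5 encodes ASK1, a kinase activated by oxidative stress. It was at 9.55, 10.11, 10.15 and 9.72 in KO1 to KO4, against 9.29, 9.72, 10.36 and 9.96 in WT1 to WT4. Its lowest sample was WT1 and its highest WT3, so that wild-type samples spanned all 4 knockout samples. Map3k7 encodes TAK1, the kinase that links cytokine and toll-like receptors to both JNK and NF-kappaB. It was at 10.51, 10.63, 10.22 and 9.99 in KO1 to KO4, against 10.02, 10.59, 9.99 and 10.46 in WT1 to WT4, between percentiles 83.1 and 89.2. The genotypes overlapped for both genes.

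Mapk8ip1, the gene of the scaffold JIP1, gave a signal near the middle of the scale. It was at 7.14, 7.16, 7.49 and 7.37 in KO1 to KO4, against 7.60, 7.07, 7.61 and 7.13 in WT1 to WT4 (probe set 10485151). WT1 and WT3 were the highest of the 8 samples and WT2 the lowest. The signal exceeded the 95th percentile of olfactory receptor genes on 8 of 8 arrays, with 96.7% to 98.8% of those genes dimmer, but exceeded the median gene on 1 of 8, KO3. It lay between percentiles 41.6 and 50.6 of all genes. Cd3e and Itga2b, the T and NK cell and the megakaryocyte marker above the yardstick on every array, lay at 46.5 to 51.8 and 46.0 to 52.6. The yardstick alone therefore does not show that Mapk8ip1 is expressed.

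The order of the samples followed the array medians for several members. On WT1 and WT3, the arrays of highest median, Map2k4 and Mapk9 were lowest and Mapk10 and Mapk8ip1 were highest. Relative to the median gene of its own array, Mapk10 was between -1.22 and -0.75 on all 8 arrays and Mapk8ip1 between -0.36 and 0.03. Relative to it, Map2k4 was at 2.47, 2.94, 2.21 and 2.19 in KO1 to KO4, against 1.35, 2.66, 1.29 and 2.70 in WT1 to WT4, so WT1 and WT3 stood apart on this scale too. The part of the array medians in these differences was not tested.

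**Figure D2:**
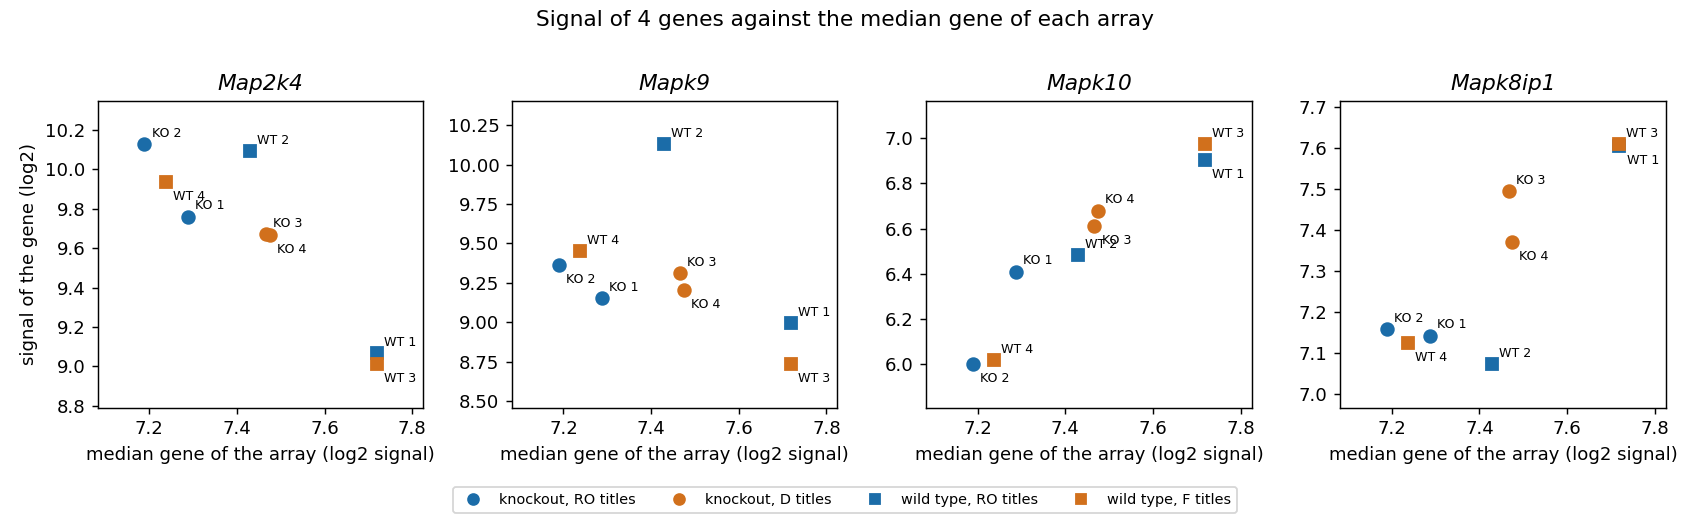
Log2 signal of Map2k4, Mapk9, Mapk10 and Mapk8ip1 (vertical axes, each with its own range) against the log2 signal of the median gene on the same array (horizontal axes), 1 point per sample. WT1 and WT3, the arrays of highest median, hold the lowest Map2k4 and Mapk9 and the highest Mapk10 and Mapk8ip1 signals.

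The first comparison asked whether deletion of c-jun went with a change in the transcripts of the kinases above it. Of the 9 members, 0 passed an adjusted p of 0.05 between knockout and wild-type samples in limma, and 0 had an unadjusted p under 0.05. Over all 19937 genes, 0.00502% passed the adjusted threshold (1 gene) and 2.25% the unadjusted one, so a count of 0 among 9 is near the background. The largest difference was that of Map2k4, 9.81 ± 0.22 in knockout and 9.53 ± 0.57 in wild-type samples (SD, n = 4 each), or 0.28 on the log2 scale (SE 0.25, adjusted p = 0.878 in limma). Mapk8 averaged 9.36 ± 0.32 in knockout and 9.15 ± 0.23 in wild-type samples (SD, n = 4 each), a 1.16-fold ratio with a 95% confidence interval of 0.890 to 1.50. Mapk9 averaged 9.26 ± 0.096 in knockout and 9.33 ± 0.61 in wild-type samples (SD, n = 4 each), a difference of -0.07 (SE 0.25). Mapk10 averaged 6.43 ± 0.30 in knockout and 6.59 ± 0.44 in wild-type samples (SD, n = 4 each), a difference of -0.17 (SE 0.24).

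The MAP3K genes and the scaffold gave small differences. Map3k1 averaged 10.01 ± 0.14 in knockout and 9.99 ± 0.070 in wild-type samples (SD, n = 4 each), a difference of 0.02 with an interval from -0.28 to 0.33, the narrowest of the 9. Map3k4, Map3k5 and Map3k7 differed by 0.07, 0.05 and 0.07, and Mapk8ip1 by -0.06. Each of these was smaller than the SD within either genotype. In 0 of 9 members did all knockout samples lie beyond all wild-type samples, against 1.29% of all genes. Exact 2-sided permutation tests gave p from 0.343 for Mapk8 to 0.886 for Mapk9, and 0.886 for every member after adjustment over the 9.

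The intervals differed in width between members. Among the 8 members above the receptor yardstick, the 95% confidence intervals ran no lower than -0.62 (Mapk9, a 0.652-fold ratio) and no higher than 0.82 (Map2k4, a 1.77-fold ratio), while that of Map3k4 ran from -0.30 to 0.43. That of Mapk10 ran from -0.70 to 0.37, for a probe set that did not exceed the yardstick in either genotype, so it is given as a value on the signal scale and not as a limit on a transcript change. None of the intervals reached that of Jun, from -3.09 to -1.68. All of them are on the deposited scale. The estimates move with the scale, to 0.45 for Map2k4 and 0.38 for Mapk8 after centring. The bounds therefore do not limit a transcript change on other scales.

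The scale on which the arrays are compared shifts these small values. The median of all genes was -0.11 in knockout relative to wild-type samples on the deposited scale, where 28.0% of genes were higher in knockout samples, against 0.059 after centring each array on its median gene and -0.0041 after quantile normalization. The median of the 9 members was 0.050 on the deposited scale, with 6 higher and 3 lower, 0.051 after quantile normalization, with 8 higher and 1 lower, and 0.22 after centring, with 9 higher and 0 lower. The share of all genes higher is not given after quantile normalization or centring. Genes above the median gene, as most members are, had a median of -0.028 on the deposited scale, against -0.11 for all genes. The member counts after quantile normalization and centring are therefore not read as a trait of the members. Mapk9 changed sign after centring, and Mapk10 and Mapk8ip1 after both. Mapk8 and Map2k4 were positive on all 3 scales, at 0.38 and 0.45 after centring. No member passed on any scale.

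**Figure D3:**
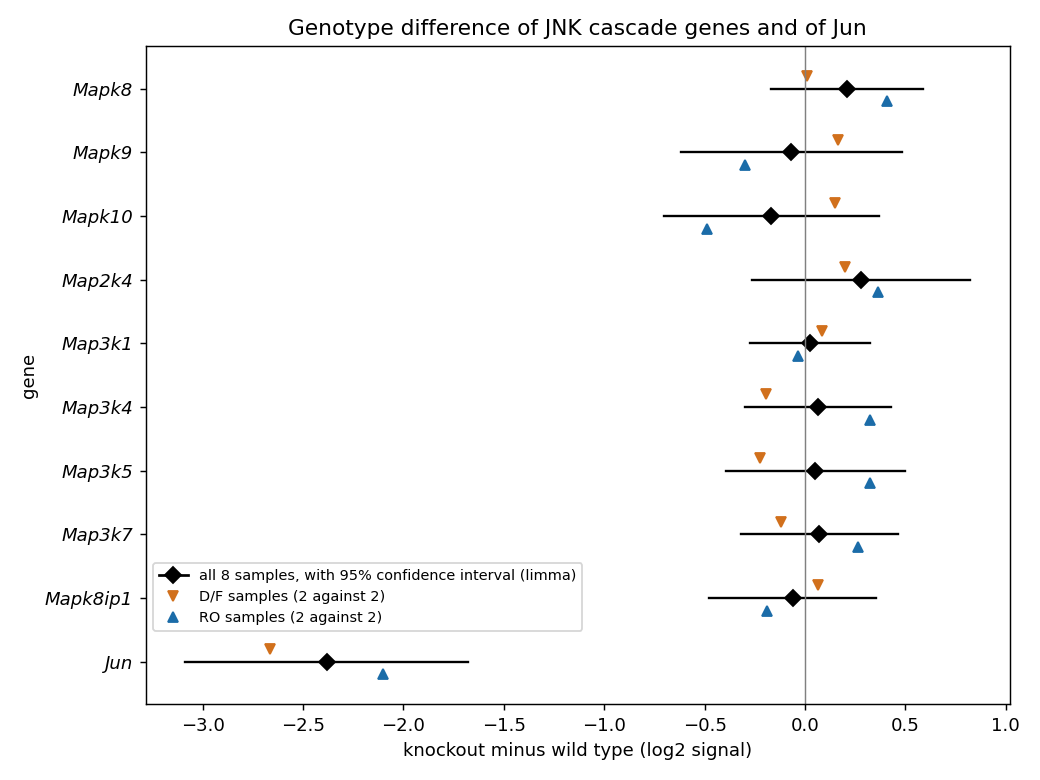
Knockout minus wild-type log2 signal (horizontal axis) for the 9 cascade genes and Jun (vertical axis). Diamonds with bars are the limma estimates over all 8 samples with 95% confidence intervals, and triangles are the differences within D/F samples (down) and RO samples (up); every cascade gene's bar crosses 0, and that of Jun lies between -3.09 and -1.68.

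The labels also split the samples by title series. No member passed an adjusted p of 0.05 for D/F minus RO in limma, against 0.0201% of all genes, and 0 of 9 had an unadjusted p under 0.05, against 3.12%. The largest differences were those of Map3k5, 0.38, and Mapk8, -0.31, each with an adjusted p of 0.9999 in limma. Map3k5 averaged 9.94 in D/F knockouts and 9.83 in RO knockouts, and 10.16 in D/F wild types and 9.504 in RO wild types, so its series difference came mostly from the wild-type samples. Mapk8 averaged 9.11 in D/F knockouts and 9.62 in RO knockouts, and 9.10 in D/F wild types and 9.21 in RO wild types, so its difference lay mostly in the knockout samples. In all, 3 members were higher and 6 lower in D/F samples, where 63.8% of all genes were higher.

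Within the D/F samples both knockouts have D titles and both wild types F titles, so genotype and title letter cannot be told apart there. In these samples, 2 knockout against 2 wild type, 6 members were higher and 3 lower in knockout samples. Over all genes, 52.4% were higher there. Within the RO samples, 5 members were higher and 4 lower, against 26.5% of all genes higher. In knockout relative to wild-type samples, Mapk8 was at 0.01 in D/F and 0.41 in RO samples, and Map2k4 at 0.20 in D/F and 0.36 in RO samples. Map3k4 was at -0.19 in D/F and 0.33 in RO samples, Map3k5 at -0.22 in D/F and 0.32 in RO, and Map3k7 at -0.12 in D/F and 0.26 in RO. Mapk10, at 0.15 in D/F and -0.49 in RO samples, went the other way, as did Mapk9, at 0.17 in D/F and -0.30 in RO, and Mapk8ip1, at 0.07 in D/F and -0.19 in RO. The sign thus differed between series for 7 of 9 members, Map3k1 included (0.08 in D/F and -0.03 in RO samples), while Mapk8 and Map2k4 were positive in both. The share of all genes whose sign differed was not computed, so this count is not read as a trait of the members. The medians of all genes were 0.0097 in D/F and -0.25 in RO samples. The interaction of genotype and title series passed for 0 of 9 members, against 0.0301% of all genes, and 0 of 9 had an unadjusted p under 0.05, against 5.38%. The largest terms, D/F minus RO, were 0.64 for Mapk10, -0.55 for Map3k5 and -0.52 for Map3k4, and adjusted p ran from 0.716 to 0.892 in limma over the members. With 1 array left out at a time these terms ran from 0.16 to 1.11 for Mapk10, from -0.83 to -0.27 for Map3k5 and from -0.68 to -0.36 for Map3k4, and quantile normalization gave 0.25 for Mapk10. Within series, 0 members passed, against 0.00502% of genes in D/F and 0.0401% in RO samples. At an unadjusted p under 0.05 the count was 0 as well, against 1.89% of genes in D/F and 8.39% in RO samples.

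The other genes of the pathway were taken by role. Of 77 genes listed in 9 roles, 69 were measured, and 0 passed an adjusted p of 0.05 for genotype in limma. An unadjusted p under 0.05 was reached by 5 of 69, all lower in knockout samples; over all genes 2.25% reached it, 342 of 449 of them lower. The 5 included the deleted gene Jun. The others were Bmf, Dusp10, Map4k1 and Map2k3. On the deposited scale 27 of the 69 were higher and 42 lower, with a median of -0.088; after centring 50 were higher and 19 lower, with a median of 0.084. The direction of the roles therefore depends on the scale, and each difference below is on the deposited scale unless said otherwise.

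Upstream of the MAP2K tier, 14 other MAP3K genes had a median difference of -0.064, with 4 higher and 10 lower, and 0 with an unadjusted p under 0.05. Map3k20, the gene of the ribosome stress kinase ZAK, was at 0.28, and Map3k12 and Map3k13, which encode the leucine zipper kinases DLK and LZK, were at -0.25 and -0.19. After centring, Map3k20, Map3k12 and Map3k13 were at 0.45, -0.083 and -0.022. Map3k13 lay below the receptor yardstick on every array except WT1, so its value is not read as a transcript change. The MAP4K role also held Stk4, the gene of an MST kinase, at 0.16. Of the 6 genes measured in this role, Stk4 included, 3 were higher and 3 lower, with a median of -0.12. Map4k1, the gene of the haematopoietic kinase HPK1, was at 10.90, 10.97, 11.28 and 11.44 in KO1 to KO4, against 11.66, 11.30, 11.37 and 11.78 in WT1 to WT4. Its genotypes overlapped, and its difference was -0.38 (adjusted p = 0.878 in limma). Its relatives Mink1 and Tnik were at -0.36 and -0.27, or -0.18 and -0.10 after centring. Tnik lay below the receptor yardstick in KO1, KO2, KO4 and WT2. Among 10 partners of the MAP3K kinases, 6 higher and 4 lower with a median of 0.029, Gadd45b was at -0.31, Gadd45a at 0.18 and Tab1, a TAK1-binding protein, at -0.17; Tab1 was at 0.0024 after centring.

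Among the scaffolds, 1 of 6 was higher and 5 were lower, with a median of -0.12. Sh3rf1, which encodes the scaffold POSH, was at 8.84, 8.80, 8.87 and 8.74 in KO1 to KO4, against 8.91, 9.14, 9.10 and 9.01 in WT1 to WT4. Its genotypes did not overlap, as in 1.29% of all genes, with a difference of -0.23 (adjusted p = 0.878 in limma). After centring the difference was -0.055 and the genotypes overlapped. Arrb2, the gene of a beta-arrestin that binds JNK3, was at -0.21 and Flna, the gene of filamin A, at -0.13, or 0.042 after centring.

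The 5 phosphatases that dephosphorylate JNK had a median of -0.096, with 1 higher and 4 lower. Dusp10, which encodes MKP-5, was at 7.52, 7.28, 7.30 and 7.63 in KO1 to KO4, against 7.63, 7.82, 8.05 and 8.06 in WT1 to WT4. KO4 lay just above WT1, and the other 3 knockout samples lay below the lowest wild-type sample. The difference was -0.46 (SE 0.17, adjusted p = 0.878 in limma), and -0.29 after centring. Dusp8 and Dusp1 were at -0.13 and -0.094, and both changed sign after centring.

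Of 10 substrates of JNK 3 were higher and 7 lower, with a median of -0.16. Jun apart, the lowest p was that of Bmf, the gene of a BH3-only protein that JNK can phosphorylate to promote cell death. Bmf was at 8.31, 7.71, 7.96 and 8.40 in KO1 to KO4, against 9.13, 8.26, 8.81 and 8.63 in WT1 to WT4. KO1 and KO4 lay above WT2, so the genotypes overlapped. The difference was -0.61 (SE 0.22, adjusted p = 0.878 in limma), and -0.44 after centring. Nfatc1 was at -0.26.

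In the parallel p38 branch 2 of 7 genes were higher and 5 lower, with a median of -0.15. Map2k3, which encodes the p38 kinase kinase MKK3, was at 10.56, 10.56, 10.46 and 10.42 in KO1 to KO4, against 10.90, 11.20, 10.66 and 10.59 in WT1 to WT4. The genotypes did not overlap on the deposited scale, as in 1.29% of all genes there, but they overlapped after centring. The difference was -0.34 (SE 0.14, adjusted p = 0.878 in limma), or -0.17 after centring. Mapk12 and Mapk13, which encode p38 gamma and p38 delta, were at -0.34 and -0.26, or -0.17 and -0.084 after centring. In the ERK branch, with 1 of 3 higher and 2 lower, Map2k2, Map2k1 and Braf were at -0.12, -0.043 and 0.063; after centring all 3 were higher, at 0.047, 0.13 and 0.23.

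**Figure D4:**
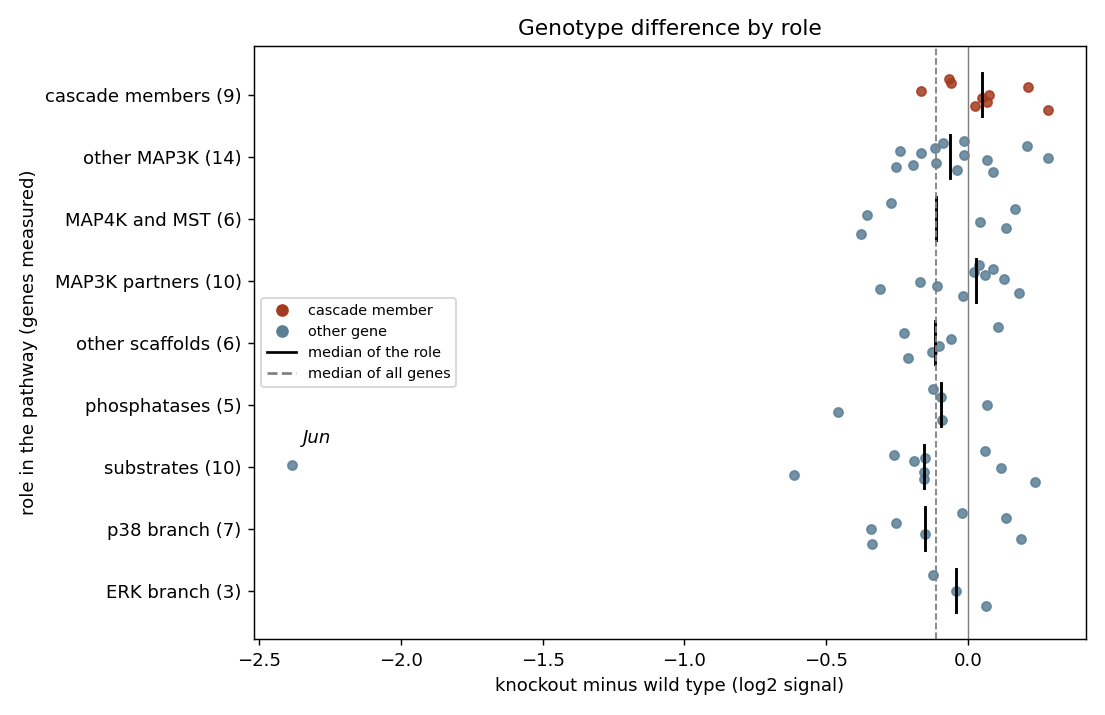
Knockout minus wild-type log2 signal on the deposited scale (horizontal axis) of the 9 cascade members and of other pathway genes in 8 roles (vertical axis, number measured in brackets), 1 point per gene. Black ticks are role medians and the dashed line is the median of all genes, -0.11; Jun, at -2.38, stands apart among the substrates and the other pathway genes shown lie between -0.61 and 0.28.

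For Mapk8 and for Map2k4, the member of largest SD over the 8 samples, the genes of most similar profile were sought over the 8 arrays after each was centred on its median. Those nearest Mapk8 were Sdf4, Tfdp2 and Ptpn12, with Pearson's r of 0.969, 0.964 and 0.962. Those nearest Map2k4 were Fxr1, Cul3 and Gabpa, with r of 0.997, 0.995 and 0.994. Fxr1 was at 10.31, 10.57, 10.32 and 10.20 in KO1 to KO4, against 9.87, 10.58, 9.76 and 10.48 in WT1 to WT4, lowest on WT1 and WT3 as Map2k4 was. Olfactory and vomeronasal receptor genes, small RNA genes and symbols of the Gm, LOC and Rik kind were left out of this search. The profiles share the same 8 arrays and their scaling, and the genes are the closest among all those left. These values therefore describe likeness and carry no test.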

How the data were processed

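Transcripts of 8 samples of mouse B-lymphoid cells were profiled on Affymetrix MoGene 1.0 ST arrays. The authors deposited log2 signals for 34760 probe sets; the tool was MAS5, per the submitters' processing notes, a method that uses mismatch probes this array type lacks, and its version and settings are not given. The log base was read from the values: on the linear scale the mean of each array with 2% trimmed was 500. Per the labels' protocols, random hexamers primed the reverse transcription.

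From these values, 21640 probe sets with 1 gene symbol were kept, 1321 with several and 11799 with none were left out, and the probe set of highest mean was used per gene (19937 genes, of which 954 had more than 1). Entrez identifiers of 21553 probe sets matched the GRCm38.p6 gene table, and 0 symbols were updated. No source used here gives the annotation's genome build, so no probe coordinates are printed.

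The genotype label gave the groups, with replicates numbered in accession order. Genotype and title series were fitted together with limma 3.58.1 in R 4.3.3 (lmFit, eBayes with trend, 5 residual degrees of freedom), with Benjamini-Hochberg adjustment over all genes, and an interaction fit gave the differences within series. Permutation tests were 2-sided and exact, without title series. The number of arrays limits the precision. Alternatives were a fit without title series, quantile normalization, centring, all single-symbol probe sets, means over a gene's probe sets, 2 filters on dim genes, priors without trend or robust, array weights, a random block, each series alone and each array left out. Counts over the pathway cover 9 roles, of which 1 is not reported here on its own. The members, roles and tests were chosen with earlier results of these data known. Named genes were all members, Jun, up to 3 genes per role of smallest p for genotype and up to 2 for title series, and the 3 nearest profiles of Mapk8 and of the most variable member.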

Additional observations from a re-analysis of the deposited data

Results flagged for a closer look

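Among the 4 samples of a genotype, a sample was singled out where its gap to the nearest other sample exceeded 0.829 of the group's range. In 88 such groups, 2 for each of 44 named genes, 6 samples met this, about what chance gives at 1 group in 20. None was for a cascade member. Jun was at 6.46 in KO2, against 6.97 in the nearest knockout sample, and at 10.55 in WT3, against 8.84 in the nearest wild-type sample. Mink1 was at 9.97 in WT1 (nearest 9.31), and Tab1 at 9.53 in WT1 (nearest 9.24). In KO1, Nfatc1 was at 9.74 (nearest 9.20) and Map2k1 at 9.80 (nearest 9.98).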

How the results depend on the processing

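No member passed for genotype, title series or their interaction under any of the 22, 18 and 19 alternatives that could be fitted for each. Of the 19, the fit without title series is the main interaction fit again and could not differ from it. Both filters on dim genes removed Mapk10, and the filter at the median gene also removed Mapk8ip1, so they were not tested there. The smallest adjusted p in limma were 0.180 (Mapk10, genotype, without wild type replicate 4), 0.142 (Map3k7, title series, with array weights) and 0.207 (Mapk10, interaction, without wild type replicate 3). Signs were less stable, and the cause was not tested. For knockout minus wild type, centring gave 0.10 for Mapk9, 0.0038 for Mapk10 and 0.11 for Mapk8ip1, and quantile normalization gave 0.0040 for Mapk10 and 0.12 for Mapk8ip1. Array weights gave -0.00089 for Map3k4 and -0.089 for Map3k5. D/F samples alone gave 0.17 for Mapk9, 0.15 for Mapk10, 0.065 for Mapk8ip1, -0.19 for Map3k4, -0.22 for Map3k5 and -0.12 for Map3k7; RO samples alone gave -0.034 for Map3k1. Without wild type replicates 1 and 3, an alternative chosen after seeing the data, the values were 0.18 for Mapk10, -0.21 for Map2k4, -0.0078 for Map3k1, -0.19 for Map3k7 and 0.19 for Mapk8ip1. For the interaction, array weights gave 0.55 for Map2k4 and -0.13 for Mapk8ip1, centring gave -0.21 for Map3k1 and -0.074 for Mapk8ip1, and quantile normalization gave -0.093 for Mapk8ip1.

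With each array left out in turn, the genotype difference ran from 0.094 to 0.33 for Mapk8, from 0.058 to 0.48 for Map2k4 and from -0.42 to -0.020 for Mapk10, which kept their signs. It ran from -0.26 to 0.21 for Mapk9, from -0.041 to 0.076 for Map3k1, from -0.026 to 0.18 for Map3k4, from -0.12 to 0.19 for Map3k5, from -0.082 to 0.20 for Map3k7 and from -0.18 to 0.070 for Mapk8ip1. The series difference ran from -0.42 to 0.037 for Mapk9 and from -0.024 to 0.38 for Mapk10. The interaction ran from -0.098 to 1.03 for Mapk9, from -0.68 to 0.35 for Map2k4, from -0.018 to 0.25 for Map3k1 and from -0.012 to 0.52 for Mapk8ip1.

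Over all genes, 1 passed for genotype; 32 passed in RO samples alone, 79 in D/F samples alone and 4 without wild type replicates 1 and 3, and 0 after centring, among genes above the median gene and without wild type replicate 1, 2 or 4. For title series 4 passed, with a range from 0 (both filters on dim genes, without wild type replicate 2 or 4) to 41 (without wild type replicates 1 and 3), and 20 with array weights. For the interaction 6 passed, with a range from 0 (genes above the median gene) to 38 (without wild type replicate 2). No paired analysis was possible because the labels carry no replicate numbers. Pseudocounts do not apply to log2 values. A series alone, or as a random block, gives no series or interaction difference.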
